A study of Mus musculus with 8 samples.

Results

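The Ikaros family of zinc finger transcription factors was examined in single hematopoietic stem cells (HSCs), with Ikzf2 set against its relatives. The family has 5 members by name, Ikzf1 to Ikzf5, and 4 of them were analysed among the 10720 genes of the table; Ikzf3 was not analysed here. Members were chosen by gene name. HSCs were sorted from the bone marrow of adult C57BL/6 mice as LSK CD150+CD34-CD48- cells, picked by hand and sequenced from the poly(A) tail with unique molecular identifiers (UMIs), which count each captured molecule a single time. Cells labelled WT came from Mx1-cre- Med23 L/L control littermates, and cells labelled KO from Mx1-cre+ Med23 L/L mice, in which poly(I:C) induces deletion of Med23, which encodes part of the Mediator complex. Both groups therefore carried the floxed Med23 alleles. The study's blood counts were made in both WT and KO mice after poly(I:C). Whether the WT mice behind these cells received it is not given in the sources used here. The Mx1 promoter that drives Cre responds to interferon, so deletion is induced throughout the hematopoietic system and in other interferon-responsive tissues rather than in HSCs alone.

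Ikaros proteins bind DNA through zinc fingers near the N terminus and pair with one another through a separate set of fingers at the C terminus. They recruit the NuRD chromatin remodelling complex and other cofactors, and can repress or activate their targets. Ikzf1 encodes Ikaros, which is needed for lymphoid development and is already present in stem cells. Ikzf2 encodes Helios, known from HSCs and regulatory T cells. Ikzf3 encodes Aiolos, a factor of lymphocytes, Ikzf4 encodes Eos, and Ikzf5 encodes Pegasus, the most divergent member, which prefers another DNA sequence.

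The coding sequence of the second zinc finger is shown for every member because it lies in the DNA-binding part of the protein and sets Ikzf2 beside its relatives. The sequences were read on the coding strand from the GRCm38 reference annotation, and capitals mark the codons of the cysteine and histidine pairs that hold the zinc ion.
Ikzf1: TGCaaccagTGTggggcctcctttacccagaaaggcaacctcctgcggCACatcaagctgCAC
Ikzf2: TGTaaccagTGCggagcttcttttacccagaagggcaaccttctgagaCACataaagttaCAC
Ikzf3: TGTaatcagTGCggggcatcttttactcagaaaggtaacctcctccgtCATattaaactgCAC
Ikzf4: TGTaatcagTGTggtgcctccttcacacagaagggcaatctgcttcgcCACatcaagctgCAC
Ikzf5: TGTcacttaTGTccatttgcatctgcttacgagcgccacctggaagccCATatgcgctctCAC
Of these 63 bases, Ikzf2 shares 51 (81.0%) with Ikzf1, 48 (76.2%) each with Ikzf3 and Ikzf4, and 30 (47.6%) with Ikzf5. In GRCm38, Ikzf1 lies at chr11:11685003-11772926 on the plus strand. The other members lie on the minus strand, with Ikzf2 at chr1:69531214-69687245, Ikzf3 at chr11:98464902-98546031, Ikzf4 at chr10:128630843-128645991 and Ikzf5 at chr7:131388652-131410521. The coding sequence of Ikzf2 has 1581 bases and held 6 zinc fingers, 4 in its first part and 2 at its end. Ikzf1 and Ikzf4 also held 6, whereas 5 were found in Ikzf3 and in Ikzf5. The search took only fingers with pairs of cysteine and histidine codons at set spacings. A finger of another form would have been missed, so these counts are minimums.

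Whether the members could take each other's reads was examined next. The primers that tagged each cell bind the poly(A) tail, as in this one, whose capitals mark the cell barcode and the UMI positions.
Barcode-RT primer1: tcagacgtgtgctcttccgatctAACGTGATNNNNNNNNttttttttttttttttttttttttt
Between transcripts of Ikzf2 and of Ikzf1, Ikzf3 or Ikzf5, no stretch of 31 bases was shared. Ikzf2 and Ikzf4 shared 3 such stretches, of which 2 lay within the last 500 bases. Ikzf2 exons overlap those of 1 gene on the other strand (Gm29114), Ikzf4 exons those of 1 (Gm26876) and Ikzf5 exons those of 2 (Gm44624 and Pstk). Whether counting used the strand was not stated, so reads of these pairs may not have been told apart.

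The table held 304 cells labelled WT and 282 labelled KO. The study's minimum of 2000 genes and 20000 UMIs, applied to the genes listed, kept 259 and 234 cells with 21475782 and 16180546 UMIs (median per cell, 59649 and 50281). The 4 libraries of each genotype are titled batch 1 to batch 4, with the same numbers in both genotypes. Whether equal numbers mark cells handled together is not given in the sources used here. Column names did not tell the libraries apart, so each label was 1 pool. No difference below therefore has a replicate check, and intervals (95%) cover counting error only. All 12 HSC markers were analysed and summed to 1556 counts per 1000000 UMIs (CPM) in WT cells against 1409 CPM in KO cells. They moved apart: 8 of the 12 were below equality (median log2 ratio, -0.37), beside 5158 of all 10720 genes. Among these markers were Slamf1, which encodes the sort marker CD150 (-2.26, with 39.0 and 8.16 CPM), and Esam (-1.39), while Mecom was at 1.14. The level of Med23 itself was no lower under the KO label, with 122 UMIs (5.68 CPM) in WT cells against 117 UMIs (7.23 CPM) in KO cells. Fewer KO cells than WT cells had a Med23 UMI (5.98% against 10.4% after thinning each cell to 20000 UMIs, and 11.5% against 18.1% without), with overlapping intervals when thinned, and 1 KO cell held 23.9% of the KO UMIs. The part of the gene that is deleted is not given in the sources used here, and tags from the poly(A) end may lie outside it. Every direction below is therefore one between pools as labelled. Transcripts of 21 oocyte genes summed to 2542 CPM in WT cells against 51.9 CPM in KO cells. They exceeded 1000 CPM in 66 WT cells and 3 KO cells. Log2 ratios without those cells are given for the members analysed and for some other genes and lists. Other values below include those cells and may differ without them.

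Ikzf1 and Ikzf2 were both about 2-fold higher in the pool labelled KO, Ikzf4 was sparse, and Ikzf5 differed by less than its counting error. Ikzf1 had 903 UMIs (42.0 CPM, interval 39.3 to 44.9) in WT cells against 1402 UMIs (86.6 CPM, 82.2 to 91.3) in KO cells. Ikzf2 had 476 UMIs (22.2 CPM, 20.2 to 24.2) in WT cells against 762 UMIs (47.1 CPM, 43.8 to 50.6) in KO cells. The counting intervals of the pools did not overlap for either gene.

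Ikzf4 had 56 UMIs (2.61 CPM, 1.97 to 3.39) in WT cells against 65 UMIs (4.02 CPM, 3.10 to 5.12) in KO cells. Ikzf5 had 698 UMIs (32.5 CPM, 30.1 to 35) and 533 UMIs (32.9 CPM, 30.2 to 35.9). For Ikzf4 and Ikzf5 the intervals of the pools overlapped. Since a UMI stands for a molecule caught at its tail, these levels need no division by length, although the capture rate of each transcript is unknown. In the WT pool the order was Ikzf1, Ikzf5, Ikzf2, Ikzf4, with no overlap between neighbours in pooled counts, and in the KO pool Ikzf2 stood above Ikzf5. The WT order of Ikzf5 and Ikzf2 did not hold with each cell at equal weight (28.4 and 28.2 CPM) or with cells thinned to 20000 UMIs (140 and 153 UMIs).

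**Figure D1:**
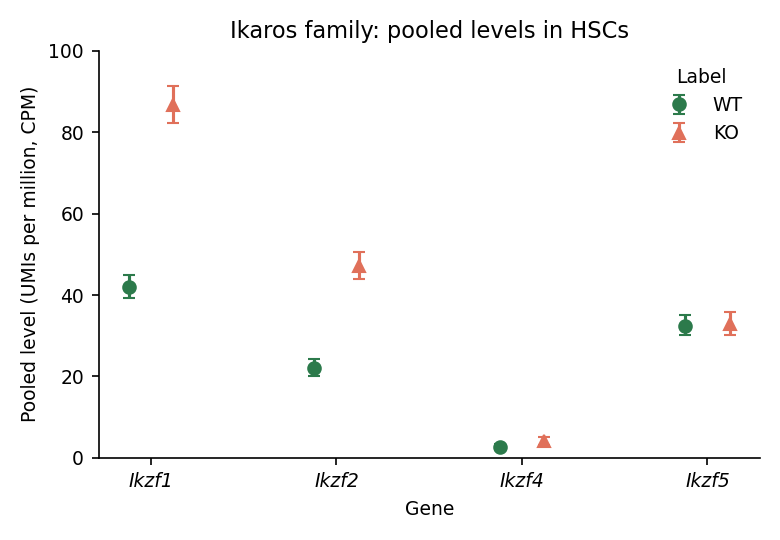
Pooled level in CPM (vertical axis) of the 4 members (horizontal axis) in kept cells labelled WT (circles) and KO (triangles); bars are exact Poisson intervals for counting error. Ikzf1 and Ikzf2 are higher in the KO pool (86.6 and 47.1 CPM against 42.0 and 22.2 CPM), and the Ikzf5 points overlap.

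On the log2 scale, the ratio of the KO pool to the WT pool was 1.04 (0.92 to 1.17) for Ikzf1 and 1.09 (0.92 to 1.26) for Ikzf2. It was 0.62 (0.09 to 1.17) for Ikzf4 and 0.02 (-0.15 to 0.18) for Ikzf5. Of the 4 members, 2 were at least 2-fold higher and 0 were at least 2-fold lower. Over all 10720 genes, 6.98% were at least 2-fold higher and 7.94% at least 2-fold lower, and the median log2 ratio was 0.02. Among genes of similar level, within 2-fold of that of Ikzf2, 4.44% were at least 2-fold higher; around the levels of Ikzf1, Ikzf4 and Ikzf5 the shares were 2.76%, 15.9% and 4.72%. A counting interval that leaves out equality says little by itself here, since it lay above a ratio of 1 for 39.2% of all genes and below it for 35.7%. Ikzf2 had been named by the study as higher in Med23-deficient HSCs from bulk RNA, so its choice was not independent of its direction.

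In pooled counts, the difference of Ikzf2 was close to that of Ikzf1 and larger than that of Ikzf5. In the WT pool there were 0.527 UMIs of Ikzf2 for each UMI of Ikzf1, and in the KO pool 0.544. The ratio between them, which needs no scaling by depth, was 1.03 (0.893 to 1.19), so a difference between the changes of Ikzf2 and Ikzf1 was not detectable at this depth in kept cells. Over every cell in the table it was 1.25 (1.09 to 1.44), an interval above no difference. Against Ikzf5, Ikzf2 went from 0.682 to 1.43 UMIs per UMI, a ratio of 2.10 (1.78 to 2.47). For Ikzf1 against Ikzf5 the ratio was 2.03 (1.76 to 2.35). Against Ikzf4 the ratio of Ikzf2 was 1.38 (0.929 to 2.04), an interval that holds both no difference and a 2-fold one. Without cells with oocyte transcripts it was 1.63 (1.08 to 2.45), an interval above no difference. In a single random thinning of cells to equal depth the ratio of Ikzf2 to Ikzf5 was 1.26 (0.926 to 1.73), an interval that includes no difference. That draw gave log2 ratios of 0.81 for Ikzf2 and 0.47 for Ikzf5. Equal weight for each cell, which involves no draw, gave 0.91 and 0.29, further apart.

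Together the 4 members had 2133 UMIs (99.3 CPM) in WT cells against 2762 UMIs (171 CPM) in KO cells, a log2 ratio of 0.78. Ikzf1 took 42.3% (40.2 to 44.5) of these UMIs in WT cells against 50.8% (48.9 to 52.6) in KO cells. Ikzf2 took 22.3% (20.6 to 24.1) and 27.6% (25.9 to 29.3). The part of Ikzf5 went from 32.7% (30.7 to 34.8) to 19.3% (17.8 to 20.8), whereas Ikzf4 held 2.63% and 2.35%. In pooled counts the KO share of Pegasus transcripts was thus lower, and those of Ikaros and Helios higher. With cells thinned the shares lay closer together, at 48.7% and 50.2% for Ikzf1, 25.6% and 27.8% for Ikzf2, and 23.4% and 20.1% for Ikzf5. These thinned shares rest on the same single random draw.

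In single cells, Ikzf2 was found in a minority of cells of each label. Its UMIs per cell ran from 0 to 31 with a median of 0 in WT cells, and from 0 to 62 with a median of 0 in KO cells. The upper quartile was 16.4 CPM in WT cells and 48.7 CPM in KO cells. Ikzf1 ran from 0 to 64 UMIs (median 1) in WT cells and from 0 to 67 UMIs (median 2) in KO cells. Cells of both labels spanned the whole range from 0 upward for both genes, so the labels overlapped cell by cell.

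More KO cells than WT cells had an Ikzf2 UMI, and cells with one held slightly more of them under the KO label. After each cell was thinned to 20000 UMIs, 19.3% (14.7 to 24.6) of WT cells and 30.8% (24.9 to 37.1) of KO cells had an Ikzf2 UMI, a difference of 11.5 percentage points (3.82 to 19.0). Without thinning the shares were 30.9% and 44.9%. Cells with a UMI had a mean of 3.06 Ikzf2 UMIs in WT cells against 3.36 in KO cells after thinning. For Ikzf1 the thinned shares were 37.5% and 51.3%, with means of 3.0 and 3.65 UMIs. Averaged over every possible thinning instead of a single random one, the shares were 20.9% and 33.5% for Ikzf2 and 33.5% and 54.3% for Ikzf1.

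Ikzf5 was found in 23.6% of WT cells and 28.2% of KO cells after thinning, a difference of 4.65 percentage points (-3.06 to 12.4). Averaged over every possible thinning its shares were 26.8% and 27.3%, and without thinning they were 43.2% and 39.7%, so its order between labels depended on the thinning. Ikzf4 was found in 3.09% and 2.99% of thinned cells. As background, Zp3, an egg coat gene that HSCs should lack, had a UMI in 46.3% of WT cells and 7.26% of KO cells at the same depth. The WT shares of all 4 members lay below that of Zp3, as did the KO share of Ikzf4, so these shares, and differences resting on them, are not read as shares of cells that express a member. In WT cells without high oocyte transcripts Ikzf2 was found in 19.7% and Zp3 in 34.2%.

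**Figure D2:**
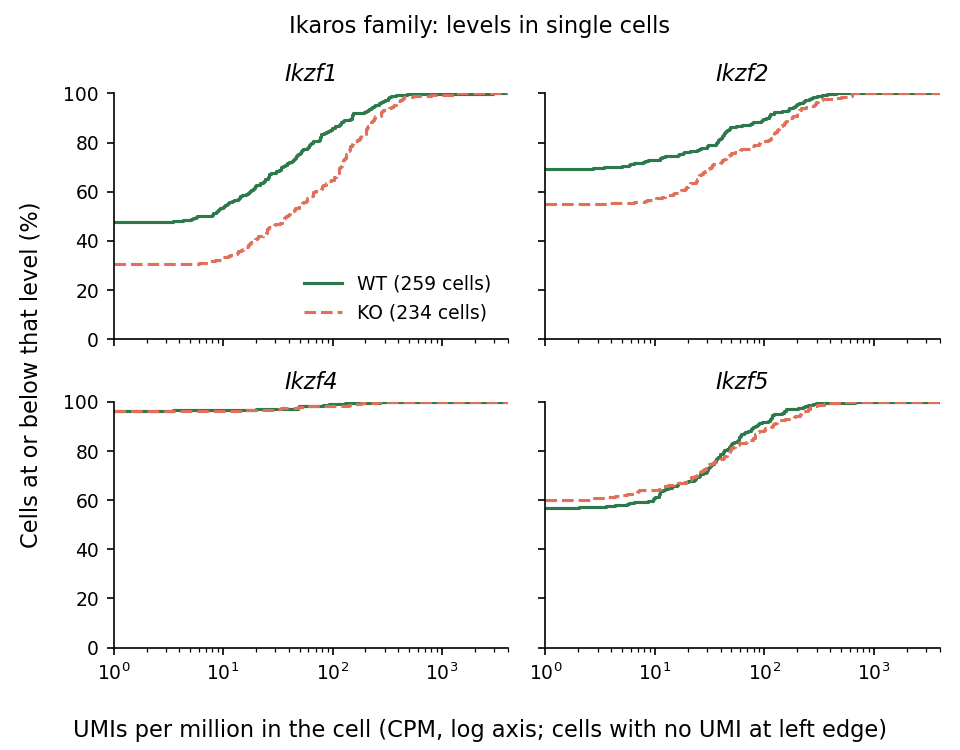
Percentage of kept cells (vertical axis) at or below a given level in CPM (horizontal log axis) for each member, with WT cells as solid lines (259 cells) and KO cells as dashed lines (234 cells); each line starts at the left edge at the percentage of cells with no UMI. The KO line lies below the WT line for Ikzf1 and Ikzf2 through most of the range, while the lines for Ikzf4 and Ikzf5 run close together.

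How far single cells carried these sums differed between members. The cell with the most Ikzf2 UMIs held 6.51% of them in WT cells against 8.14% in KO cells, and 13 WT cells and 11 KO cells together held 50% or more. Without the top cell of each label the Ikzf2 log2 ratio was 1.06. Ikzf4 rested on few cells: 1 KO cell held 35 of its 65 UMIs (53.8%), and without the top cell of each label its log2 ratio was 0.03. The ratio of Ikzf2 to Ikzf4 was 2.05 without the top cells.

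Ikzf1 was uneven in WT cells. A single WT cell of 22105 UMIs held 64 Ikzf1 UMIs, a level of 2895 CPM. The variance of thinned Ikzf1 counts was 12.9 times their mean in WT cells, above 97.6% of genes within 2-fold of its level, against 5.0 times in KO cells. When every cell had equal weight, mean Ikzf1 was 54.0 CPM in WT cells and 93.8 CPM in KO cells, a log2 ratio of 0.80. Leaving out the top cell of each label brought these means to 43.0 and 88.5 CPM and the log2 ratio to 1.04. For Ikzf2 the variance was 4.39 times its mean in WT cells and 5.38 times in KO cells, near the medians of genes of its level (4.37 and 4.65). Its equal-weight means were 28.2 and 52.9 CPM, a log2 ratio of 0.91, and 0.92 without the top cells.

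The size of the Ikzf2 difference varied between cells of different depth. In cells of 20000 to under 40000 UMIs (83 WT, 90 KO) the Ikzf2 log2 ratio was 0.98. In cells of 40000 to under 80000 UMIs (75 WT, 84 KO) it was 0.26 (-0.07 to 0.59), and in cells of 80000 UMIs or more (101 WT, 60 KO) it was 1.41. Ikzf1 had 0.63, 1.11 and 1.13 in the same order. Both genes were thus higher in the KO pool in every band, but for Ikzf2 the counting interval of the middle band included no difference. Ikzf5 had 0.48, 0.09 and -0.03. With all cells thinned to 20000 UMIs the log2 ratio was 0.74 for Ikzf1 and 0.81 for Ikzf2, and with the study's normalized values, averaged over cells, it was 0.76 and 0.82, all short of 2-fold. Over all genes the median log2 ratio of those normalized values was -0.14, against 0.02 for pooled CPM.

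Ikzf2 and Ikzf1 lay at similar levels in WT cells with and without oocyte transcripts. In the 66 such WT cells Ikzf2 was at 20.7 CPM, against 22.7 CPM in the other WT cells, and Ikzf1 was at 41.0 against 42.4 CPM. Without such cells the log2 ratio was 1.03 for Ikzf2 and 1.02 for Ikzf1. Ikzf5 was at 20.8 CPM in those WT cells and 36.4 CPM in the others, and its log2 ratio was -0.15 without them. For Ikzf4 the log2 ratio without such cells was 0.32.

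**Figure D3:**
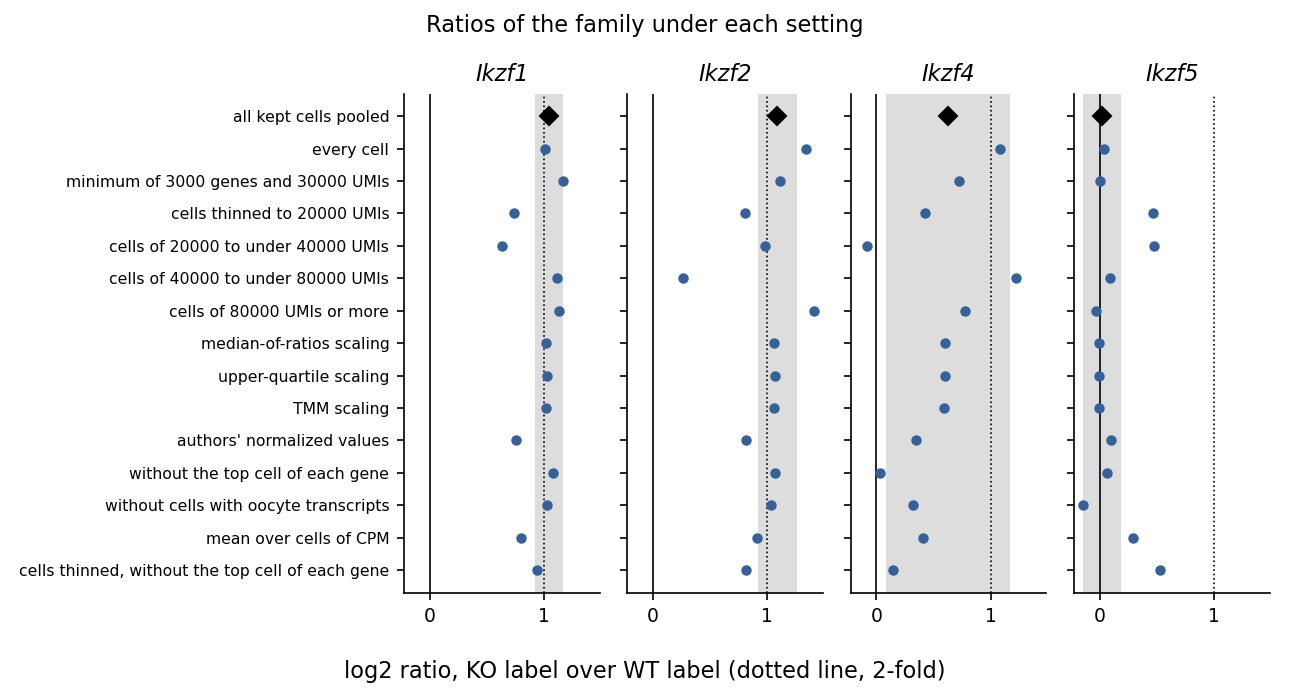
log2 ratio of the KO pool to the WT pool (horizontal axis) for each member under each setting (vertical axis); the diamond is the value over all kept cells, the grey band its counting interval and the dotted line 2-fold. Ikzf1 and Ikzf2 lie to the right of 0 under every setting shown, with the lowest Ikzf2 value of 0.26 in cells of 40000 to under 80000 UMIs.

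Since Helios pairs with Ikaros, detection of the members in the same cell was examined. Of the 50 WT cells with an Ikzf2 UMI after thinning, 34.0% (21.2 to 48.8) had an Ikzf1 UMI, against 38.3% (31.7 to 45.2) of the 209 WT cells without one. In KO cells the shares were 51.4% (39.3 to 63.4) of 72 and 51.2% (43.3 to 59.2) of 162. Cells with both transcripts made up 6.56% of WT cells and 15.8% of KO cells, and within each label Ikzf1 was found about as often with Ikzf2 as without it. For Ikzf5 the shares with and without Ikzf2 were 18.0% and 24.9% in WT cells and 27.8% and 28.4% in KO cells. Over cells, which share a pool, Pearson's r between thinned log2 counts of Ikzf2 and Ikzf1 was -0.05 in WT cells (n = 259) and 0.06 in KO cells (n = 234).

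Of WT cells, 92 had no UMI of any of the 4 members after thinning, 122 had 1 member, 42 had 2, 2 had 3 and 1 had all 4. Of KO cells, 56 had none, 105 had 1 member, 61 had 2, 10 had 3 and 2 had all 4. Cells with several members were thus more frequent under the KO label, where Ikzf1 and Ikzf2 were also higher.

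**Figure D4:**
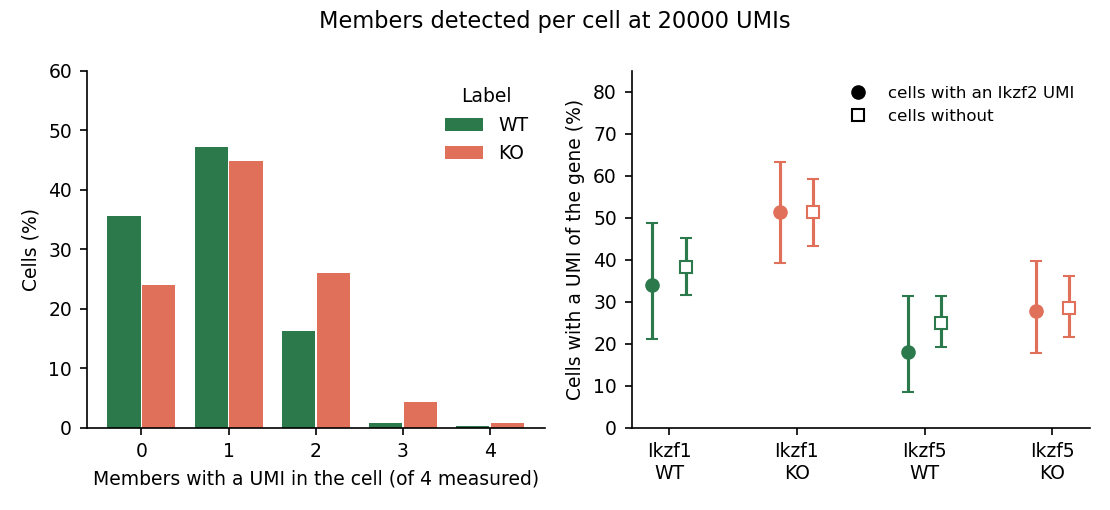
Left, percentage of thinned cells (vertical axis) by the number of members with a UMI (horizontal axis), for WT and KO cells; right, percentage of cells with an Ikzf1 or Ikzf5 UMI among cells with (filled circles) and without (open squares) an Ikzf2 UMI, with exact binomial intervals. The filled and open points overlap in each label, for example 51.4% and 51.2% for Ikzf1 in KO cells.

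Ikzf2 was also set beside 4 genes that the series follows across HSCs. Tyrobp encodes a signalling adaptor of myeloid cells. Of the 106 KO cells with a Tyrobp UMI, 36.8% (27.6 to 46.7) had an Ikzf2 UMI, against 25.8% (18.5 to 34.3) of the 128 without. In WT cells the shares were 25.6% and 18.2%. Itgam encodes the myeloid integrin CD11b; Ikzf2 was found in 26.2% of KO cells with Itgam and 31.8% of those without. Itga2b encodes CD41 of megakaryocytes and primed stem cells, and Ikzf2 was found in 31.8% of KO cells with it and 27.9% of those without. For Cd34, a progenitor surface marker, the KO shares were 33.2% (26.7 to 40.1) with it and 15.6% (5.28 to 32.8) without it. The CD34- sort was by surface protein, whereas the counts here are of transcripts. The study also reported Cd34 among the genes its single Med23-deficient HSCs expressed. Cd34 had a UMI in 73.7% of thinned WT cells and 86.3% of thinned KO cells. Its pooled level was 178 CPM in WT cells and 304 CPM in KO cells. In WT cells the order was the opposite for Cd34 (18.8% with, 20.6% without) and for Itga2b (16.8% and 21.4%). The intervals overlapped for all 4 genes.

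The genes whose counts most resembled those of Ikzf2 over cells were sought among 4812 genes found in at least 20% of thinned cells of both labels. By the mean of Pearson's r within WT and within KO cells (259 and 234 cells), the first 3 were Ears2 (0.157), Utp3 (0.153) and Osbpl8 (0.152). These values are weak and hardly agreed between labels (r of 0.07 across genes between the values in WT and in KO cells), and of the first 5 genes 2 remained among the first 5 with Spearman's rho. Ikzf1 came at place 2280 (0.004) and Ikzf5 at place 3788 (-0.038).

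The partners through which Ikaros proteins act on chromatin had, as lists, smaller log2 ratios than Ikzf1 and Ikzf2. Of 14 NuRD genes analysed, 1 was at least 2-fold higher in the KO pool, a share like the 6.98% of all genes, and 0 were at least 2-fold lower, with a median log2 ratio of 0.20 (-0.05 with the normalized values). The higher one was Chd3, which encodes the remodelling ATPase Mi-2alpha, with 2354 UMIs (110 CPM) in WT cells against 4022 UMIs (249 CPM) in KO cells, a log2 ratio of 1.18 (1.11 to 1.26). Its paralog Chd4, the ATPase Mi-2beta and a main partner of Ikaros, was at 314 and 400 CPM, with a log2 ratio of 0.35. Mta1, a NuRD scaffold, had a log2 ratio of 0.68, whereas the deacetylase Hdac2 had -0.50 and Mta2 had -0.42. With the normalized values Chd3 was at 0.94, short of 2-fold, and Mta1, Hdac2 and Mta2 were at 0.25, -0.43 and -0.18.

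All 14 genes of the Sin3, CtBP and BAF complexes lay within 2-fold (median log2 ratio, 0.22, and -0.03 with the normalized values). The BAF ATPase Smarca4 was at 0.62 and Smarcd1 at 0.59, and the BAF subunit Smarcb1 was at -0.40. The Sin3 subunit Sap30 was at -0.20, or 0.33 without cells with oocyte transcripts. With the normalized values Smarca4 was at 0.11, Smarcd1 at 0.22, Smarcb1 at -0.72 and Sap30 at -0.47. The 11 genes for the kinase, phosphatase and ubiquitin ligase that act on Ikaros proteins were also within 2-fold (median, 0.08, and -0.19 with the normalized values). Crbn, which encodes cereblon, the receptor through which thalidomide analogs direct Ikaros for degradation, had 629 UMIs (29.3 CPM) and 273 UMIs (16.9 CPM), a log2 ratio of -0.80 (-1.01 to -0.59). Cul4b, a scaffold of that ligase, was at -0.40. Ppp1cc, a catalytic subunit of protein phosphatase 1, was at 0.58 and the casein kinase 2 subunit Csnk2a2 at 0.47, or -0.35 with the normalized values. Trps1, a GATA-type factor that carries Ikaros-like C-terminal fingers, was at 7.73 and 7.60 CPM, a log2 ratio of -0.02 (-0.37 to 0.32).

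Genes tied to the lineages that Ikaros factors guide differed more between lists. Of 17 lymphoid priming genes, 7 were analysed, with 1 at least 2-fold higher (6.98% of all genes were) and a median log2 ratio of 0.48. Flt3, a receptor of lymphoid-primed progenitors, was at 12.9 and 26.5 CPM (log2 ratio, 1.03) and Notch1 at 0.74, while Satb1 was at -0.01. With cells thinned, Flt3 was at 0.61, short of 2-fold. Of 8 Notch targets 1 was analysed, Hes1 (-0.03, or 0.65 with cells thinned). Of 27 hematopoietic transcription factors, 2 were at least 2-fold higher and 2 at least 2-fold lower (median, 0.34, and -0.07 with the normalized values), shares like those of all genes (6.98% and 7.94%): Irf8 (1.48) and Mecom (1.14) were higher, and Gata1 (-1.49) and Id3 were lower. Mecom was at 0.61 with cells thinned. Without the top cell of each label Irf8 was at 2.15 (1 cell held 45.5% of its WT UMIs) and Gata1 at -2.36 (1 cell held 55.4% of its KO UMIs). Id3 had 305 UMIs in WT cells against 1 in KO cells, an interval of -13.2 to -5.36 on the log2 scale. With pooled counts below 3 set to 3, its log2 ratio was -6.26, or -4.20 without cells with oocyte transcripts.

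Of 20 megakaryocyte genes, 3 were at least 2-fold higher and 6 at least 2-fold lower, beside 6.98% and 7.94% of all genes. Their median log2 ratio was 0.0028, or -0.16 with the normalized values. Ppbp (2.08) and Plek (1.29) were the most raised, and Vwf (206 and 7 UMIs) and Clu (178 and 7 UMIs) the most reduced. Of 11 myeloid genes, 8 were at least 2-fold higher and 0 lower (median, 1.34), beside the same shares of all genes. Itgam was at 3.67, or 4.69 without the top cells (1 cell held 57.5% of its WT UMIs). Of 7 neutrophil markers, 2 were analysed and both had negative ratios, S100a8 (-1.09, with 17.6 and 8.22 CPM) and S100a9 (-0.90). For S100a8 the top cell held 30.5% of the WT UMIs and 66.9% of the KO UMIs. For S100a9 it held 58.1% and 73.1%. Without the top cells the log2 ratios were -2.17 for S100a8 and -1.54 for S100a9. The myeloid list holds genes the study chose from these cells or from bulk RNA of such cells, and is not independent evidence of its direction. The ratio of Ikzf2 lay below the median of the myeloid list and above the medians of the partner lists.

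**Figure D5:**
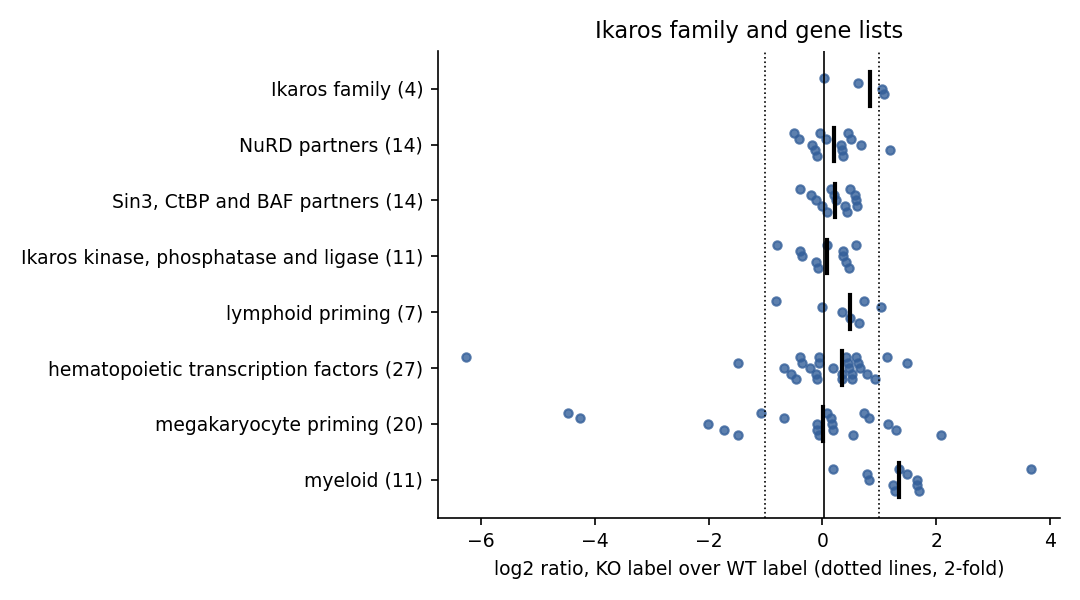
log2 ratio of the KO pool to the WT pool (horizontal axis) for each gene analysed (points) of the Ikaros family and of 7 gene lists (vertical axis, number analysed in brackets); black bars are list medians, the thin line the median of all genes (0.02) and dotted lines 2-fold. The median is 0.83 for the family, 1.34 for the myeloid list and between 0.0028 and 0.48 for the others.

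Since Ikzf2 and Ikzf1 are also expressed in lymphocytes, markers of those cells were examined, although the lineage depletion and sort were designed to remove T and B cells. Of 15 T cell and regulatory T cell markers 2 were analysed, Lck and Lat, which summed to 103 CPM in WT cells against 58.2 CPM in KO cells. Lat had a log2 ratio of -0.96 and Lck one of 0.02, with 46.0% of its KO UMIs in 1 cell and a log2 ratio of -0.67 without the top cells. Of 10 B cell markers 1 was analysed, Cd79b (55.4 and 86.3 CPM), and of 9 NK cell markers Nkg7 and Klrb1c were analysed, summing to 175 and 210 CPM. Cd3e, Foxp3 and the other markers of these lists were not analysed here, and the part of such cells in the Ikzf1 and Ikzf2 levels was not tested.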

How the data were processed

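The authors aligned reads to an mm9 transcriptome, counted UMIs per gene, removed genes of low mean count and deposited log2 of the normalized count plus 1; the aligner and normalization are not given in the sources used here. UMI counts were recovered by undoing the log2 and dividing by the smallest step in each cell: all of them (100%) came within 0.01 of a whole number. Kept cells were summed per label and scaled to CPM; ratios have Clopper-Pearson, levels Poisson and ratios between members conditional exact intervals (95%). Differences of shares have Newcombe intervals. Cells were thinned at random to 20000 UMIs in a single draw, on which thinned values rest unless stated otherwise. No test was run, since each label is 1 pool. The scripts were tested on simulated counts. Doublets were not called, since cells were picked by hand, and no cell types were assigned. Column names give no barcode, so barcodes shared between libraries could not be counted. Sequences and coordinates come from the GRCm38 annotation and were not joined to mm9 coordinates. Named genes are the members, Med23, Trps1, Zp3, the 4 crossing genes, the 2 most changed each way in each list with at least 50 UMIs in both pools together, and the 5 most like Ikzf2; Chd4, Slamf1, Esam, S100a8, S100a9 and the lymphocyte markers were added after their values were seen. A few genes that this rule names are not reported here. Members and lists were chosen with earlier results of these data known. Python 3.11.15, NumPy 2.4.6, SciPy 1.17.1, pandas 2.3.3, statsmodels 0.14.6 and matplotlib 3.10.9 were used.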

Additional observations from a re-analysis of the deposited data

How the results depend on the processing

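No paired analysis was possible because libraries carry no mark in the column names, and for the same reason no library could be left out. Over 11 settings, of which 2 were chosen after seeing the data, the log2 ratio of Ikzf1 ran from 0.74 to 1.16. That of Ikzf2 ran from 0.81 to 1.33, of Ikzf4 from 0.03 to 1.08 and of Ikzf5 from -0.15 to 0.53. Depth bands and the mean of deposited log2 values, both given below, were not among the 11. Across the bands Ikzf2 ran from 0.26 to 1.41. Of the 11 settings, 7 kept Ikzf1 and Ikzf2 each at or above 2-fold. All 7 used pooled counts, among them the scalings named next, which moved ratios little. Among the 11, settings with thinned, equally weighted or normalized cells fell short of 2-fold for both genes. Equal weight without the top cell of each label, not among the 11, gave 1.04 for Ikzf1 and 0.92 for Ikzf2. Median-of-ratios, upper-quartile and TMM scaling shifted every ratio by -0.03, -0.02 and -0.03. The causes of the differences below were not tested.

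Thinning to 20000 UMIs gave log2 ratios of 0.74 for Ikzf1, 0.81 for Ikzf2 and 0.47 for Ikzf5, a ratio of Ikzf2 to Ikzf5 of 1.26 (0.926 to 1.73), WT shares of family UMIs of 48.7% for Ikzf1, 25.6% for Ikzf2 and 23.4% for Ikzf5 (KO shares 50.2%, 27.8% and 20.1%), and a median of 0.18 for the hematopoietic transcription factors. Thinning without the top cells gave 0.94 for Ikzf1, 0.82 for Ikzf2 and 0.53 for Ikzf5. Equal weight for each cell (mean CPM) gave 0.80 for Ikzf1, 0.91 for Ikzf2 and 0.29 for Ikzf5. The authors' normalized values gave 0.76 for Ikzf1 and 0.82 for Ikzf2; WT shares of 47.8% for Ikzf1 and 27.3% for Ikzf5; KO shares of 52.9% for Ikzf1 and 25.9% for Ikzf2; and list medians of -0.049 (NuRD), -0.025 (Sin3, CtBP and BAF), -0.19 (kinase, phosphatase and ligase), -0.074 (hematopoietic transcription factors) and -0.16 (megakaryocyte). The mean of the deposited log2 values, a smaller scale by construction, gave 0.76 for Ikzf1, 0.43 for Ikzf2 and 0.0091 for Ikzf4.

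By depth, Ikzf1 was at 0.63, Ikzf4 at -0.083 (the reverse of its pooled direction) and Ikzf5 at 0.48 in cells of 20000 to under 40000 UMIs, Ikzf2 at 0.26 and Ikzf4 at 1.22 in cells of 40000 to under 80000, and Ikzf2 at 1.41 in cells of 80000 or more. Every cell in the table gave 1.33 for Ikzf2 and a ratio of Ikzf2 to Ikzf1 of 1.25 (1.09 to 1.44). Without the top cell of each gene Ikzf4 was at 0.030, the ratio of Ikzf2 to Ikzf4 was 2.05 and the NuRD median 0.047. Without cells with oocyte transcripts Ikzf5 was at -0.15 and the myeloid median 1.48; a minimum of 3000 genes and 30000 UMIs gave a myeloid median of 1.52. Without thinning, the Ikzf5 share differed by -3.50 percentage points in place of 4.65. Of the 5 genes most like Ikzf2, 2 remained with Spearman's rho and 2 with the deposited values.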
